A study of Arabidopsis thaliana with 15 samples.

Results

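The nuclear genes for the light-harvesting antennae and the photosystem subunits of Arabidopsis thaliana were followed across 5 genotypes. The set was a list of 40 loci of the 33602 in the count files, chosen by name: 4 LHCA genes of the photosystem I antenna (LHCI), 14 LHCB genes of the photosystem II antenna (LHCII), 12 PSA genes of photosystem I (PSI) and 10 PSB genes of photosystem II (PSII). All 40 were detected and passed the filter on low counts. Whole Col-0 seedlings had grown for 3 weeks on diluted MS medium in short days with 8 h of light and 16 h of dark. Besides wild type (WT), seedlings labelled lhp1, emf1, ebs shl (mutant in both EBS and SHL) and ebs shl lhp1 (in LHP1 as well) were sequenced, with 3 libraries each and 15 in all. The labels name no alleles and no treatment, and the mutants share the Col-0 background with WT. LHP1, EBS and SHL are readers of histone modifications, and EMF1 acts with Polycomb complexes, which keep genes silent.

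Light-harvesting proteins bind chlorophyll and pass excitation energy to the photosystem cores. Photosystem II uses that energy to split water, and photosystem I to reduce ferredoxin. The antenna proteins and the peripheral subunits are encoded in the nucleus, often by several near-copies, whereas the reaction centre proteins are encoded in the chloroplast. In leaves these nuclear genes are among the most highly expressed, and light, the clock, sugars and the GLK transcription factors are known to control them.

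The RNeasy Plus Mini kit had been used for RNA of WT, lhp1 and the seedlings labelled ebs shl, and the miRNeasy Micro kit for emf1 and those labelled ebs shl lhp1. Kit and genotype therefore cannot be told apart when either of the last 2 is set against WT, whereas lhp1, ebs shl and WT share a kit, as do ebs shl lhp1 and emf1. The libraries held 11730989 to 16247262 counts. All 279 chloroplast and mitochondrial loci were at 0 counts in every library, so the chloroplast-encoded subunits were not measured here. The mutated genes were only partly as the labels would have it. LHP1 was at 18.6, 20.1 and 20.8 CPM in WT, 10.8, 10.1 and 10.6 in lhp1 and 23.4, 20.7 and 19.3 in the libraries labelled ebs shl lhp1, where it was not lowered. EBS was at 24.1, 27.4 and 25.9 CPM in WT, 2.58, 3.37 and 1.67 in ebs shl and 2.33, 1.99 and 2.51 in ebs shl lhp1. SHL was at 38.1, 43.6 and 41.2 CPM in WT, 204, 225 and 221 in ebs shl and 192, 222 and 159.9 in ebs shl lhp1, all mutant libraries lying above WT. EMF1 was at 27.5, 28.7 and 27.7 CPM in WT and 23.9, 21.8 and 22.6 in emf1, slightly lower. Its log2 fold change (log2FC) in emf1, given here and below with its standard error (SE), was log2FC -0.30 ± 0.08 SE, adjusted p = 0.0073. Some of these genes also moved in genotypes not named for them. Of the 4 genes, 2 were higher and 1 lower than WT in ebs shl, at an adjusted p under 0.05 in edgeR's test. The same counts held in ebs shl lhp1 and in emf1, and in lhp1 1 was higher and 1 lower. Together the 4 were at 114.5 CPM in WT and 356.6 in ebs shl. Gene counts do not show whether a transcript is intact, so these genotypes are named below as they are labelled.

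The 40 genes took up a large part of all counts in every genotype, with the lowest share in one library labelled ebs shl lhp1 and the highest in one WT library. The share was 11.8% ± 0.8702 (10.8, 12.5 and 12.1) in WT, 10.01% ± 0.313 (10.22, 9.65 and 10.15) in lhp1, 10.6% ± 0.4805 (10.1, 11.1 and 10.5) in ebs shl, 9.36% ± 1.13 (9.88, 8.07 and 10.2) in ebs shl lhp1 and 11.9% ± 0.3503 (12.2, 11.5 and 11.98) in emf1. The lhp1 and ebs shl lhp1 libraries were all below the WT libraries, the ebs shl libraries overlapped them, and the emf1 libraries lay within the WT range. On the TMM scale, which sets the libraries level on the bulk of the genes, the sums were instead highest in emf1: 111400 ± 10300 CPM in WT, 141200 ± 8777 in emf1 and 102200 ± 10610 in ebs shl lhp1. The 2 scales part because the TMM factors were 0.817 to 0.933 in emf1 and ebs shl lhp1 and above 1 in the other genotypes. The antenna of photosystem II made up the largest part in each library, with 63810 ± 5895 CPM in WT. Within a genotype the members moved together between libraries: 39 of 40 were lowest in WT replicate 1, 39 of 40 in lhp1 replicate 2 and all 40 in ebs shl lhp1 replicate 2. They are therefore not independent of one another, and a count of members is not a count of independent observations.

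**Figure D1:**
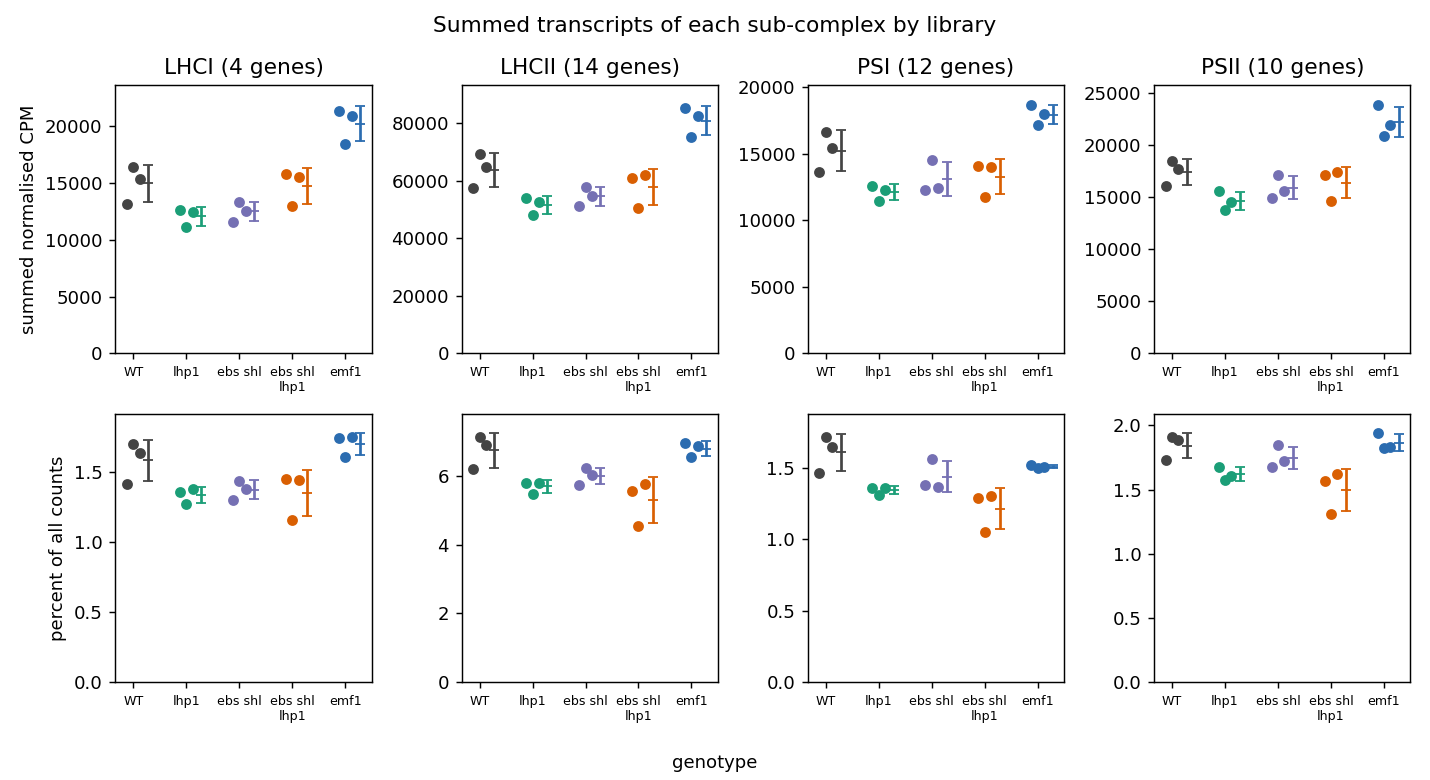
Summed transcripts of LHCI, LHCII, PSI and PSII genes by genotype, as TMM-normalised CPM (top row) and as a percentage of all counts (bottom row); points are the 3 libraries, and bars the mean and SD. In the top row all emf1 libraries lie above all WT libraries in each sub-complex; in the bottom row they lie within the WT range for LHCII and PSI and overlap it for LHCI and PSII.

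Levels per length differed widely between members. In WT the highest was LHCB1.3, at 15630 CPM per kb of exon, followed by LHCB1.5 at 6964, LHCB1.1 at 4930, LHCB1.2 at 4777 and LHCA4 at 4244. The lowest was LHCB4.3 at 4.51 CPM per kb, and the next was PSAH1 at 287.6. LHCB1.1, LHCB1.2 and LHCB1.3 lie side by side on chromosome 1, and their transcripts are 94.1% to 96.1% identical over most of their length. How reads that fit more than 1 place were counted is not given in the sources used here, so the division of counts among these 3 genes is uncertain. The same holds for LHCB2.1 and LHCB2.2, whose transcripts are 94.4% identical over 1032 bases. For 14 members, LHCB1.3, LHCB1.5, LHCB2.3, PSAE1, PSAE2, PSAH1, PSAH2, PSAN and PSBR among them, an expressed gene lies on the opposite strand. Its counts came to 0.137% to 7.48% of the member's own, and the strand setting of the counting is not given either.

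Set against WT, the photosystem genes were slightly lower in lhp1. In the seedlings labelled ebs shl their median was slightly lower, while their summed level overlapped WT on both scales. The members were mixed in those labelled ebs shl lhp1, and mostly higher in emf1 on the TMM scale. These comparisons share the WT libraries. A gene was called where its adjusted p was under 0.05 in edgeR's quasi-likelihood test over the 20477 genes tested. In lhp1, 1 of 40 members was called lower and none higher, where 0.542% of all genes were called lower and 0.772% higher. Still, 39 of 40 had a negative log2 fold change, the median was -0.30 (all genes 0.00), and in 28 the lhp1 libraries were all below the WT libraries, as held for 9.51% of all genes. With unadjusted p under 0.05 there were 31 lower members and 0 higher, beside 1075 lower and 1141 higher of the 20477 genes. Called by DESeq2 instead, 8 members were lower in lhp1: LHCB1.4, LHCA1, LHCB1.3, PSAF, PSAK, PSAN, PSAO and PSBO2. Over all genes DESeq2 called 507 of 22244 there, in either direction. In the seedlings labelled ebs shl, 2 members were called lower and none higher (2.52% and 5.31% of all genes), with a median of -0.21 and 39 negative values; in 9 the libraries all lay below WT (14% of all genes). In both genotypes the shift was broad and small: outside LHCB1.4, LHCB2.3 and LHCB4.3 no member lay below -0.40 in lhp1 or below -0.41 in ebs shl, and the SE of a member's log2 fold change was 0.09 to 0.24. Set directly against each other, ebs shl and lhp1 showed no called member in edgeR's test (3.67% of all genes were called higher and 1.39% lower) and none in DESeq2. At an unadjusted p under 0.05 there were 2 higher members and 0 lower, where 2173 of the 20477 genes were higher and 1575 lower. The members' median was 0.10 (all genes 0.00).

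In the seedlings labelled ebs shl lhp1, 16 members were called lower and 2 higher against WT, beside 35.7% and 34.6% of all genes. The median was -0.14 (all genes -0.02). Lower calls came to 40% of the members, near the share of all genes, and higher calls to 5%, far below it. By sub-complex, 1 of 4 LHCI genes (25%) and 4 of 12 PSI genes (33.3%) were lower, both below the 35.7% of all genes. Of 14 LHCII genes 6 were lower (42.9%) and 1 higher, and of 10 PSII genes 5 were lower (50%) and 1 higher. In emf1, 22 members were called higher and 4 lower, beside 30.7% and 33.9% of all genes, with a median of 0.31 (all genes -0.03). By sub-complex these were 3 higher of 4 LHCI genes, 5 higher and 3 lower of 14 LHCII genes, 7 higher of 12 PSI genes, and 7 higher and 1 lower of 10 PSII genes. The rise in emf1 depended on the scaling. With library totals alone, 4 members were higher and 7 lower and the median was -0.02, as the median of all genes was then -0.36. Upper-quartile and reference gene factors each gave 10 higher and 5 lower. Of the 20477 genes, these 3 scalings called 13662, 13194 and 13009 in either direction. Relative to the median gene the members stood 0.34 higher with library totals, as they did with TMM, upper-quartile and reference gene factors. A scaling shifts all genes of a library alike and cannot change this position. The position was 0.24 with at least 5 CPM in 3 libraries required, and 0.26 to 0.4 with single libraries left out. The medians of LHCII and PSI, 0.27 each, became -0.05 and -0.06 with library totals, while those of LHCI and PSII, 0.50 and 0.34, became 0.17 and 0.01. In ebs shl lhp1 the members stood 0.12 below the median gene under the same scalings. There library totals gave 26 lower and 2 higher calls, and reference gene factors 31 and 0. The median of all genes was then -0.23 and -0.33, and 14483 and 14685 genes were called in either direction. Shares of all genes by direction were counted on the TMM scale only. The LHCI median of 0.02 became -0.18 with library totals. The median of all members in ebs shl lhp1 also rested on single libraries: it was -0.05 without ebs shl lhp1 replicate 2, and leaving out WT replicate 2 or 1 gave -0.07 or -0.22. Without WT replicate 1, 17 members were called in emf1, those lost being LHCB5, PSAF, PSAH1, PSAL, PSAN, PSAO, PSBW, PSBX and PSBY.

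The difference with the most calls lay between the 2 mutants that share the miRNeasy kit. Set against emf1, the libraries labelled ebs shl lhp1 were lower for 33 of 40 members and higher for 1, beside 20.5% and 23.6% of all genes. The median was -0.46 (all genes 0.05), and for 37 members the 3 ebs shl lhp1 libraries all lay below the 3 emf1 libraries (22.2% of all genes). The calls covered 4 of 4 LHCI genes, 10 of 14 LHCII genes, 10 of 12 PSI genes and 9 of 10 PSII genes. LHCB4.3 alone was called higher. With only the 2 genotypes in the fit, 26 members were lower and 0 higher, LHCB4.3 being at an adjusted p of 0.056. The members' position relative to the median gene was -0.51, which again no scaling can change. It was -0.47 with at least 5 CPM in 3 libraries required, and -0.44 to -0.6 with single libraries left out. Of the 34 calls 25 held in each of the 15 alternatives, against 12 of 18 for ebs shl lhp1 against WT and 6 of 26 for emf1 against WT.

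**Figure D2:**
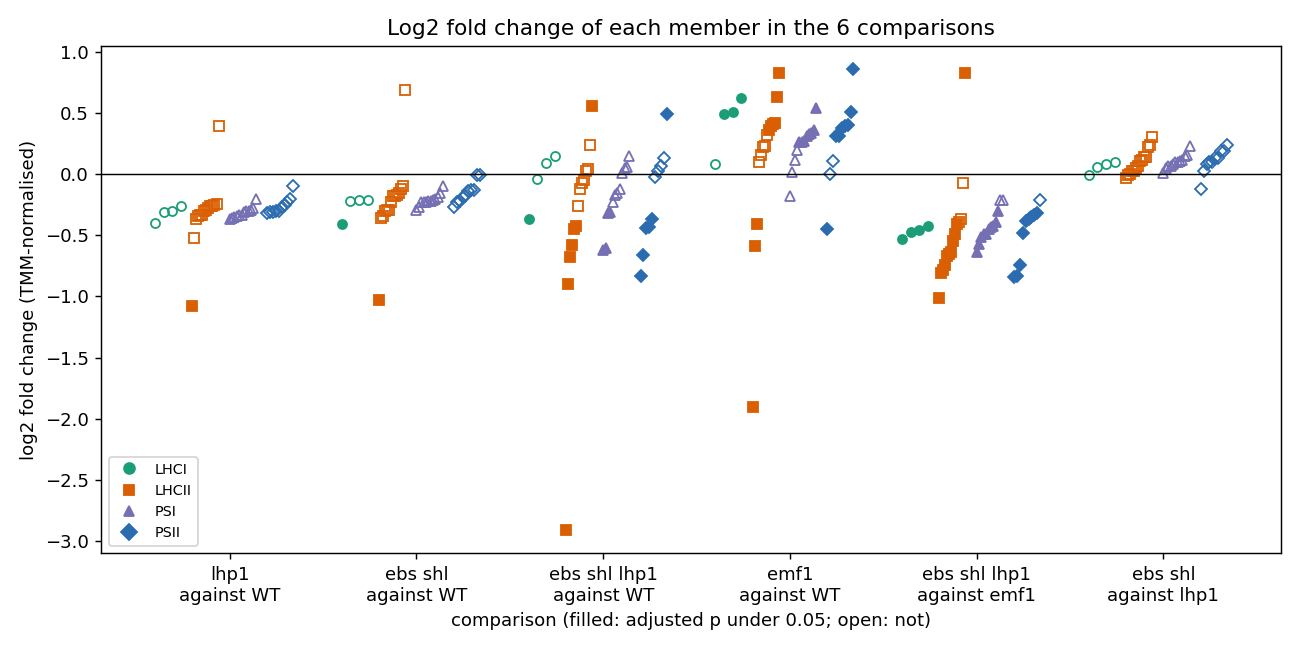
Log2 fold change of each of the 40 members in the 6 comparisons, TMM-normalised, coloured by sub-complex; filled points have an adjusted p under 0.05 and open points do not. Nearly all points lie just below 0 in lhp1 and ebs shl, they spread to both sides of 0 in ebs shl lhp1 against WT, and 39 of 40 lie below 0 in ebs shl lhp1 against emf1; the points of emf1 against WT, mostly above 0 here, have a median of -0.02 with library totals.

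The trimeric antenna of photosystem II is built from LHCB1, LHCB2 and LHCB3 proteins, the LHCB1 protein coming from 5 genes and LHCB2 from 3. Single copies moved in different directions. LHCB2.3 (AT3G27690, chromosome 3) was the member with the steepest fall. It was at 978, 1490 and 1373 CPM in WT, 880.4, 839 and 953 in lhp1 and 972, 1169 and 1008 in ebs shl. It was at 132, 120.4 and 258 CPM in ebs shl lhp1 and 317, 411 and 305 in emf1. All libraries labelled ebs shl lhp1 and all emf1 libraries lay far below every other library. The change was log2FC -2.91 ± 0.26 SE, adjusted p = 4.4e-07 in ebs shl lhp1 and log2FC -1.90 ± 0.25 SE, adjusted p = 2e-05 in emf1, and the first was below the second by log2FC -1.01 ± 0.24 SE, adjusted p = 0.004. These calls held in all 15 alternatives, with log2 fold changes of -3.34 to -2.71 and -2.22 to -1.70 against WT. Its near-copies did not follow it so far. LHCB2.2 (AT2G05070) was at 2401, 3184 and 2951 CPM in WT, 2427, 1901 and 2299 in lhp1, 2280, 2210 and 2142 in ebs shl, 2057, 1552 and 1731 in ebs shl lhp1 and 3323, 2800 and 3052 in emf1. It was called lower in ebs shl lhp1 (log2FC -0.68 ± 0.13 SE, adjusted p = 0.00038), and its libraries overlapped WT in emf1 (log2FC 0.10 ± 0.13 SE, adjusted p = 0.5). LHCB2.1 (AT2G05100) was likewise lower in ebs shl lhp1 (log2FC -0.42 ± 0.13 SE, adjusted p = 0.0082), a call lost without WT replicate 2 (adjusted p = 0.065), and in emf1 it was at log2FC 0.22 ± 0.13 SE, adjusted p = 0.13. The share of LHCB2.3 in the LHCB2 counts, which no scaling of libraries can alter, was 17.1% ± 1.03 in WT, 3.86% ± 1.68 in ebs shl lhp1 and 4.79% ± 1.08 in emf1.

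LHCB1.4 (AT2G34430, chromosome 2) was the one member called in both lhp1 and ebs shl. It was at 1320, 2246 and 1725 CPM in WT, 769, 747 and 983 in lhp1 and 812, 921 and 860.5 in ebs shl, but at 1856, 1601 and 1969 in ebs shl lhp1 and 2093, 2069 and 2863 in emf1. The lhp1 and ebs shl libraries were all below the WT libraries, and the ebs shl lhp1 libraries lay within the WT range. The change was log2FC -1.08 ± 0.18 SE, adjusted p = 0.0073 in lhp1 and log2FC -1.03 ± 0.18 SE, adjusted p = 0.0027 in ebs shl, calls that held in all 15 alternatives with a highest adjusted p of 0.049 and 0.017. It was log2FC 0.04 ± 0.18 SE, adjusted p = 0.87 in ebs shl lhp1, and in emf1 log2FC 0.41 ± 0.18 SE, adjusted p = 0.061. The neighbouring LHCB1.5 (AT2G34420), whose transcript is 91.6% identical over 806 bases, is transcribed away from LHCB1.4, with 1038 bases between the annotated starts. LHCB1.5 showed another pattern, with 6180, 8497 and 7154 CPM in WT, 6124, 5583 and 6539 in lhp1, 6128, 6408 and 6077 in ebs shl, 11440, 10140 and 10520 in ebs shl lhp1 and 12440, 9870 and 11430 in emf1. Its libraries did not overlap WT in the last 2, where it was higher by log2FC 0.56 ± 0.12 SE, adjusted p = 0.00085 and log2FC 0.63 ± 0.12 SE, adjusted p = 0.00041. With factors from 8 reference genes the first of these was 0.24 and no longer called (adjusted p = 0.092); on the TMM scale 5 of those 8 were called higher in ebs shl lhp1.

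The 250 bases upstream of the annotated gene starts are shown for these neighbouring LHCB1 genes, which part ways between genotypes, and for LHCB2.3 beside LHCB2.2, of which the first falls far more steeply. They were read from RefSeq assembly TAIR10.1, in the direction of transcription; the counts were made with TAIR10 and carry no coordinates. Capitals mark matches, on either strand, to the G-box CACGTG, the I-box GATAAG, the CCAAT box CCAAT and the evening element AAAATATCT, none of which contains another.
LHCB1.4, chr2:14524357-14524606, plus strand: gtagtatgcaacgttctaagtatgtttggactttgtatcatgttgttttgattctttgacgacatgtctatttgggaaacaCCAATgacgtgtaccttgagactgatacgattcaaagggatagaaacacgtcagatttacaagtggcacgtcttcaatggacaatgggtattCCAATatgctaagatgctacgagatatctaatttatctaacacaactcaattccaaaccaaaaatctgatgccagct
LHCB1.5, chr2:14523569-14523818, minus strand: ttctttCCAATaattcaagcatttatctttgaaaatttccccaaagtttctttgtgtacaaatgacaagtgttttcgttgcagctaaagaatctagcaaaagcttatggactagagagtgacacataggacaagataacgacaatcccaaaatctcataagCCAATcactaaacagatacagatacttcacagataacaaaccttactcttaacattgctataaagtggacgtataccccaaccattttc
LHCB2.3, chr3:10255656-10255905, plus strand: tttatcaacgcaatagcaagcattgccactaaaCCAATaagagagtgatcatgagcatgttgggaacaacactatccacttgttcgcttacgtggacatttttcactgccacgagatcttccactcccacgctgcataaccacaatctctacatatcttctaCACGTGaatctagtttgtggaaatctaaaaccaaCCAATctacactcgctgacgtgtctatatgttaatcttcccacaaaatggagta
LHCB2.2, chr2:1800473-1800722, minus strand: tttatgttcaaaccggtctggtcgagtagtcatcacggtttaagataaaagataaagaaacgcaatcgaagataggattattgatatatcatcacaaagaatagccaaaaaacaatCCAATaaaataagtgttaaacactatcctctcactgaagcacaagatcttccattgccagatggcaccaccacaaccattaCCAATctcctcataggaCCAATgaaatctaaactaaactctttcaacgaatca
LHCB1.4, LHCB1.5 and LHCB2.3 each hold 2 matches to CCAAT and LHCB2.2 holds 3, and LHCB2.3 alone of these holds a G-box. Over the windows of all 40 members, 8 held a G-box (20.0%, against 6.49% of the 27443 windows of protein-coding nuclear genes), 9 an I-box (22.5% against 12.3%), 26 a CCAAT match (65.0% against 46.0%) and 0 the evening element (2.36% of all windows). These are matches of letters only and were not tested.

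The other LHCB1 copies also differed. LHCB1.1 (AT1G29920) was at 5720, 7043 and 6669 CPM in WT, 5559, 5224 and 5700 in lhp1, 6051, 6139 and 5946 in ebs shl, 6796, 5520 and 7476 in ebs shl lhp1 and 12440, 10340 and 11880 in emf1. The emf1 libraries stood clear of all others, at log2FC 0.83 ± 0.12 SE, adjusted p = 3.3e-05, and ebs shl lhp1 was at log2FC 0.03 ± 0.12 SE, adjusted p = 0.85. LHCB1.2 (AT1G29910) went the other way, with 5286, 6339 and 5903 CPM in WT, 4689, 4394 and 4842 in lhp1 and 4594, 4944 and 4289 in ebs shl. Its libraries were at 3027, 2583 and 3783 CPM in ebs shl lhp1 and 4443, 4483 and 4293 in emf1. All mutant libraries lay below WT, and the calls were in ebs shl lhp1 and emf1, by log2FC -0.90 ± 0.12 SE, adjusted p = 1.8e-05 and log2FC -0.41 ± 0.12 SE, adjusted p = 0.0092, the second not called without WT replicate 2 (adjusted p = 0.097). LHCB1.3 (AT1G29930), the most abundant member, was at 18980, 19360 and 19330 CPM in WT, 17020, 14780 and 15250 in lhp1 and 15100, 18570 and 17410 in ebs shl. It was at 19540, 16640 and 19600 CPM in ebs shl lhp1 and 25210, 23620 and 25040 in emf1. It was called higher in emf1 (log2FC 0.36 ± 0.10 SE, adjusted p = 0.0059), a call lost with library totals (0.03), upper-quartile factors (0.19) and reference gene factors (0.2). LHCB1.2 held 14.4% ± 0.251 of the LHCB1 counts in WT, 7.63% ± 0.945 in ebs shl lhp1 and 8.16% ± 0.642 in emf1, and LHCB1.5 held 17.9% ± 1.55 in WT, 26.3% ± 1.82 in ebs shl lhp1 and 20.7% ± 1.19 in emf1. LHCB1.4 held 4.305% ± 0.824 in WT, 2.54% ± 0.363 in lhp1 and 2.49% ± 0.00334 in ebs shl. LHCB3, the third kind of trimer protein, was lower in ebs shl lhp1 (log2FC -0.58 ± 0.15 SE, adjusted p = 0.0028), and in emf1 it was at log2FC 0.16 ± 0.15 SE, adjusted p = 0.35.

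The minor antenna proteins CP29 (LHCB4), CP26 (LHCB5) and CP24 (LHCB6) link the trimers to the photosystem II core. LHCB4.1 (AT5G01530) was at 1983, 2303 and 2162 CPM in WT, 1860, 1666 and 1779 in lhp1 and 1775, 2002 and 1965 in ebs shl. Its libraries were at 2012, 1765 and 2143 CPM in ebs shl lhp1 and 3067, 2676 and 2895 in emf1. LHCB4.2 (AT3G08940) was at 1379, 2010 and 1752 CPM in WT, 1452, 1276 and 1571 in lhp1, 1474, 1582 and 1468 in ebs shl, 1865, 1255 and 1788 in ebs shl lhp1 and 2114, 2044 and 2275 in emf1. LHCB4.1 was higher in emf1 (log2FC 0.42 ± 0.10 SE, adjusted p = 0.0016), a call lost with library totals (0.09), and LHCB4.2 was called in none of the 6 comparisons. LHCB4.3 (AT2G40100), a copy with very low counts, was at 6.23, 7.27 and 6.09 CPM in WT, 7.71, 9.89 and 8.05 in lhp1 and 9.74, 10.6 and 11.3 in ebs shl. It was at 8.19, 5.31 and 9.51 CPM in ebs shl lhp1 and 4.79, 5.03 and 3.11 in emf1. It was the one member whose lhp1 and ebs shl libraries all lay above WT, at log2FC 0.39 ± 0.21 SE, adjusted p = 0.54 and log2FC 0.69 ± 0.20 SE, adjusted p = 0.056, neither of them called by edgeR, whereas DESeq2 called the second (adjusted p = 0.021). In emf1 it was below WT in all libraries (log2FC -0.59 ± 0.22 SE, adjusted p = 0.028), a call lost without WT replicate 2 (adjusted p = 0.14) or emf1 replicate 3 (adjusted p = 0.13). The call was also lost with TMM factors computed without the members (adjusted p = 0.051) and with only the 2 genotypes in the fit (adjusted p = 0.054). At 3.11 to 11.3 CPM its values rest on far fewer counts than those of the other members. LHCB5 was higher in emf1 (log2FC 0.39 ± 0.12 SE, adjusted p = 0.01), a call lost with library totals (0.06), upper-quartile factors (0.22), reference gene factors (0.24) and without WT replicate 1 (adjusted p = 0.053). LHCB6 was lower in ebs shl lhp1 (log2FC -0.45 ± 0.12 SE, adjusted p = 0.0039), and both LHCB5 and LHCB6 were lower in ebs shl lhp1 than in emf1.

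**Figure D3:**
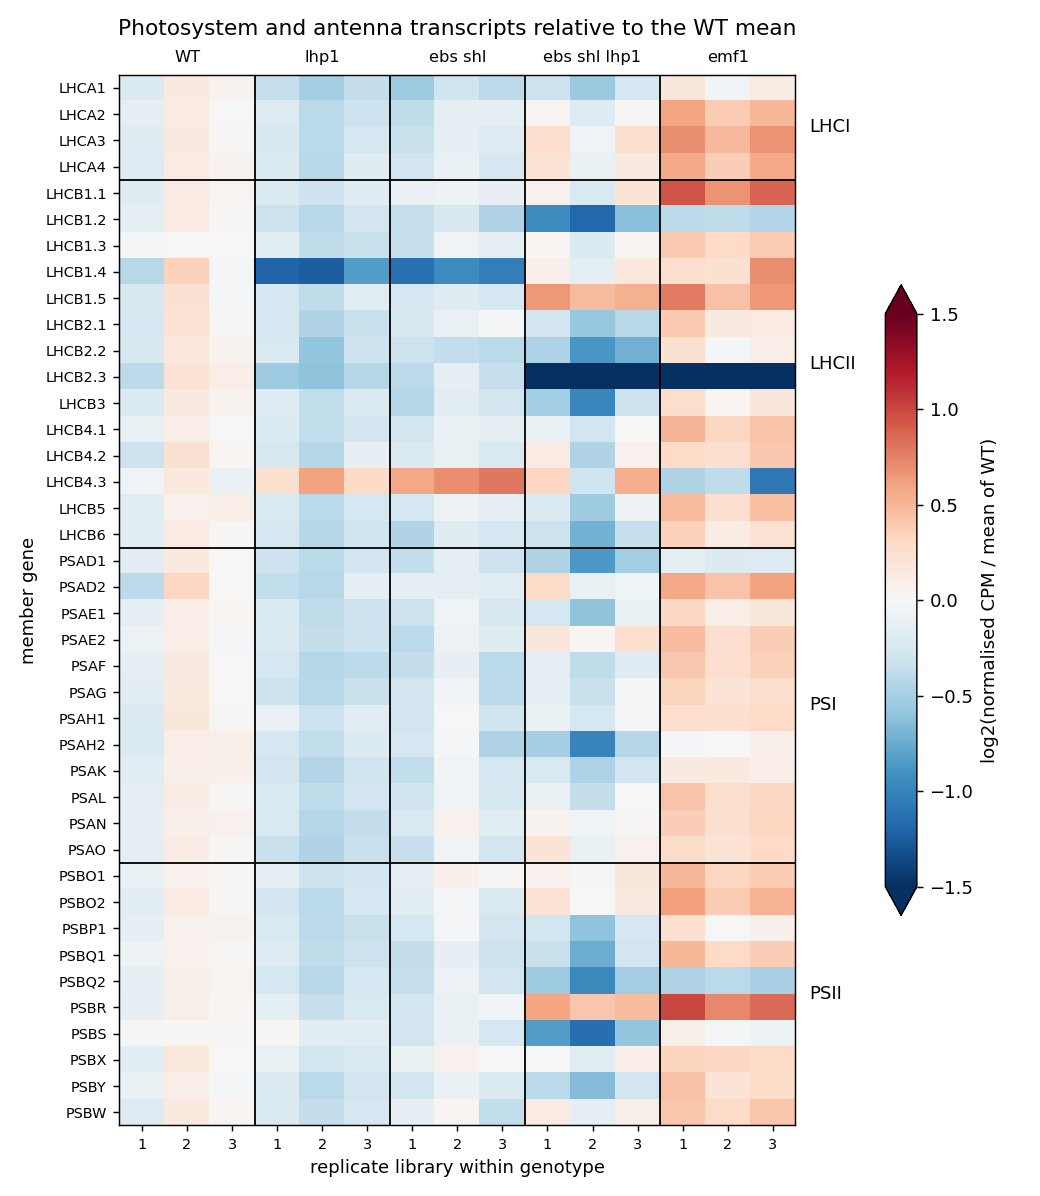
Level of each of the 40 members in each of the 15 libraries, as log2 of normalised CPM over the WT mean, grouped by sub-complex; red is above and blue below WT, and the scale ends at 1.5 either way. LHCB2.3 is beyond the scale in all ebs shl lhp1 and emf1 libraries, LHCB1.4 is low in the lhp1 and ebs shl libraries alone, and most of the emf1 columns are pale red on this scale. With library totals the members' median in emf1 falls from 0.31 to -0.02, and that of all genes from -0.03 to -0.36.

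The LHCI belt of photosystem I is formed by LHCA1 to LHCA4. LHCA4 (AT3G47470), the most abundant of them, was at 4795, 5995 and 5698 CPM in WT, 4753, 4132 and 4845 in lhp1 and 4557, 5120 and 4597 in ebs shl. It was at 6359, 5128 and 6026 CPM in ebs shl lhp1 and 8164, 7096 and 8161 in emf1. Only the emf1 libraries stood clear of WT (log2FC 0.51 ± 0.11 SE, adjusted p = 0.0014), and with library totals that call was lost (0.18). LHCA1 (AT3G54890) did not share this rise, with 3387, 4310 and 4043 CPM in WT, 3073, 2758 and 3064 in lhp1 and 2680, 3186 and 2971 in ebs shl. It was at 3155, 2654 and 3263 CPM in ebs shl lhp1 and 4411, 3792 and 4244 in emf1. It was lower in ebs shl (log2FC -0.41 ± 0.11 SE, adjusted p = 0.041) and in ebs shl lhp1 (log2FC -0.37 ± 0.11 SE, adjusted p = 0.0094), the second not called without WT replicate 2 or ebs shl lhp1 replicate 2 (adjusted p = 0.062 and 0.05). The call in ebs shl was lost when any one of 5 libraries was left out, WT replicates 2 and 3 and each ebs shl replicate, with adjusted p of 0.056 to 0.17. LHCA2 and LHCA3 were higher in emf1, by log2FC 0.49 ± 0.10 SE, adjusted p = 0.00099 and log2FC 0.62 ± 0.11 SE, adjusted p = 0.00025, of which the first was 0.16 and not called with library totals (adjusted p = 0.14); the call of LHCA3 held under the 15 alternatives, at 0.29 with library totals.

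Among the photosystem I subunits, PSAD and PSAE form the docking site of ferredoxin, PSAF and PSAN that of plastocyanin, and PSAG and PSAK contact LHCI, while PSAH, PSAL and PSAO lie where LHCII can dock. PSAD1 (AT4G02770) was at 1351, 1657 and 1499 CPM in WT, 1211, 1133 and 1234 in lhp1, 1176, 1355 and 1215 in ebs shl, 1103, 829.7 and 1048 in ebs shl lhp1 and 1363, 1301 and 1319 in emf1. Its copy PSAD2 (AT1G03130) was at 549, 893 and 717 CPM in WT, 558, 542 and 653 in lhp1, 649, 648 and 646 in ebs shl, 877, 667 and 690.5 in ebs shl lhp1 and 1077, 964 and 1096 in emf1. PSAD1 was lower in ebs shl lhp1 (log2FC -0.60 ± 0.11 SE, adjusted p = 0.00024) and PSAD2 higher in emf1 (log2FC 0.54 ± 0.15 SE, adjusted p = 0.0066), a call lost with library totals (0.21). The PSAD1 share of the pair was 67.9% ± 3.08 in WT, 57.1% ± 2.73 in ebs shl lhp1 and 55.97% ± 1.41 in emf1, so the balance leaned towards PSAD2 in both mutants. PSAE1 (AT4G28750) was at 1083, 1270 and 1207 CPM in WT, 1013, 910 and 955 in lhp1, 953, 1131 and 1002 in ebs shl and 992, 781 and 1095 in ebs shl lhp1. It was called lower in the last (log2FC -0.31 ± 0.12 SE, adjusted p = 0.031) although the libraries overlap. That call was lost without WT replicate 2, WT replicate 3 or ebs shl lhp1 replicate 2 (adjusted p = 0.12, 0.075 and 0.16) and with only the 2 genotypes in the fit (adjusted p = 0.095). In emf1 PSAE1 was at 1475, 1268 and 1339 CPM (log2FC 0.20 ± 0.12 SE, adjusted p = 0.16).
PSAE2 (AT2G20260) was at 290.5, 330.1 and 305 CPM in WT, 266, 241 and 249 in lhp1, 232, 290 and 273 in ebs shl, 346, 315 and 366 in ebs shl lhp1 and 424, 366 and 398 in emf1. PSAE2 was higher in emf1 (log2FC 0.36 ± 0.10 SE, adjusted p = 0.0053), a call lost with library totals (0.03), upper-quartile factors (0.19) and reference gene factors (0.2). The PSAE1 share was 79.3% ± 0.482 in WT, 73.4% ± 1.94 in ebs shl lhp1 and 77.5% ± 0.317 in emf1.

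PSAH1 (AT3G16140) was at 323, 422 and 377 CPM in WT, 347, 299 and 332 in lhp1, 309, 372 and 304 in ebs shl, 349.9, 311 and 369 in ebs shl lhp1 and 448, 446 and 456 in emf1. PSAH2 (AT1G52230) was at 796, 994 and 986 CPM in WT, 771, 717 and 800 in lhp1, 780.2, 914 and 676 in ebs shl, 654, 460.3 and 688 in ebs shl lhp1 and 916, 925 and 975 in emf1. PSAH2 fell in ebs shl lhp1 (log2FC -0.62 ± 0.15 SE, adjusted p = 0.0017) and PSAH1 did not pass the test (log2FC -0.12 ± 0.11 SE, adjusted p = 0.33). The call of PSAH1 in emf1 (log2FC 0.27 ± 0.11 SE, adjusted p = 0.046) was lost under 7 of the 9 other settings, and with library totals the sign turned (-0.06). The call was also lost without WT replicate 1 or 3 or any single emf1 replicate (adjusted p of 0.061 to 0.2). The PSAH1 share of the pair was 28.8% ± 1.06 in WT, 36.7% ± 3.16 in ebs shl lhp1 and 32.4% ± 0.512 in emf1. PSAF (AT1G31330) was at 2199, 2662 and 2423 CPM in WT, 2017, 1799 and 1848 in lhp1 and 1897, 2237 and 1836 in ebs shl. Its libraries were at 2218, 1860 and 2116 CPM in ebs shl lhp1 and 3217, 2881 and 3086 in emf1. Its emf1 libraries were above all WT libraries (log2FC 0.33 ± 0.10 SE, adjusted p = 0.012). The call was lost with library totals (0.00), upper-quartile factors (0.16), reference gene factors (0.18) and without WT replicate 1 (adjusted p = 0.059). PSAN (AT5G64040) was at 1191, 1387 and 1384 CPM in WT, 1128, 981 and 1034 in lhp1, 1129, 1385 and 1176 in ebs shl, 1367, 1277 and 1335 in ebs shl lhp1 and 1702, 1556 and 1650 in emf1. Its level in ebs shl lhp1 was lower than in emf1 (log2FC -0.30 ± 0.10 SE, adjusted p = 0.02). That call was lost with library totals (-0.18, adjusted p = 0.088), with only the 2 genotypes in the fit (adjusted p = 0.062) and without emf1 replicate 1 (adjusted p = 0.056). PSAK was lower in ebs shl lhp1 (log2FC -0.32 ± 0.10 SE, adjusted p = 0.01), and PSAL and PSAO were higher in emf1 (log2FC 0.34 ± 0.11 SE, adjusted p = 0.012, and log2FC 0.26 ± 0.10 SE, adjusted p = 0.035), neither call holding with library totals, where PSAL was at 0.01 and the sign of PSAO turned (-0.07). Neither held without WT replicate 1 (adjusted p = 0.06 and 0.14), and the PSAO call was also lost without WT replicate 3, emf1 replicate 1 or emf1 replicate 3 (adjusted p = 0.067, 0.054 and 0.074). PSAG was called in the comparison of ebs shl lhp1 with emf1 alone (log2FC -0.43 ± 0.11 SE, adjusted p = 0.0065).

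In photosystem II the PSBO, PSBP and PSBQ proteins shield the oxygen-evolving cluster. PSBO1 (AT5G66570) was at 3118, 3495 and 3376 CPM in WT, 3001, 2677 and 2734 in lhp1 and 3039, 3518 and 3374 in ebs shl. It was at 3488, 3267 and 3740 CPM in ebs shl lhp1 and 4708, 4149 and 4350 in emf1. PSBO2 (AT3G50820) was at 983, 1197 and 1116 CPM in WT, 898, 831 and 912 in lhp1, 987, 1081 and 946 in ebs shl, 1282, 1107 and 1210 in ebs shl lhp1 and 1688, 1427 and 1571 in emf1. Both rose in emf1, by log2FC 0.40 ± 0.09 SE, adjusted p = 0.0014 and log2FC 0.51 ± 0.10 SE, adjusted p = 0.00046, and both calls were lost with library totals (0.07 and 0.18). The PSBO1 share moved little, from 75.2% ± 0.77 in WT to 74.5% ± 1.23 in ebs shl lhp1 and 73.8% ± 0.507 in emf1. The PSBQ copies parted. PSBQ1 (AT4G21280) was at 993, 1091 and 1056 CPM in WT, 914, 803 and 839 in lhp1 and 814, 961 and 835 in ebs shl. Its libraries were at 827, 623 and 858 CPM in ebs shl lhp1 and 1480, 1287 and 1357 in emf1. PSBQ2 (AT4G05180) was at 1130, 1317 and 1279 CPM in WT, 1033, 929 and 1033 in lhp1, 976, 1167 and 1027 in ebs shl, 857, 638 and 866 in ebs shl lhp1 and 907, 939 and 889 in emf1. Both fell in ebs shl lhp1, by log2FC -0.44 ± 0.12 SE, adjusted p = 0.0036 and log2FC -0.66 ± 0.12 SE, adjusted p = 0.00018. In emf1 PSBQ2 fell (log2FC -0.45 ± 0.12 SE, adjusted p = 0.0039) under every alternative, and PSBQ1 rose (log2FC 0.39 ± 0.12 SE, adjusted p = 0.0088). The PSBQ1 call was lost with library totals (0.06), upper-quartile factors (0.22) and reference gene factors (0.24). The PSBQ1 share was 45.8% ± 0.8802 in WT, 49.4% ± 0.338 in ebs shl lhp1 and 60.1% ± 2.12 in emf1.

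PSBS and PSBR moved most among the other photosystem II genes. PSBS (AT1G44575), which senses lumen acidity and is needed for the quenching of excess excitation, was at 1718, 1773 and 1768 CPM in WT, 1775, 1560 and 1572 in lhp1 and 1434, 1630 and 1455 in ebs shl. It was at 983, 800 and 1173 CPM in ebs shl lhp1 and 1856, 1718 and 1667 in emf1. It fell in ebs shl lhp1 (log2FC -0.83 ± 0.12 SE, adjusted p = 2.7e-05) and did not pass the test in emf1 on the TMM scale (log2FC 0.00 ± 0.12 SE, adjusted p = 0.97), while library totals called it lower (-0.34). PSBR (AT1G79040), a subunit that helps hold the oxygen-evolving proteins, was at 2290, 2640 and 2543 CPM in WT, 2276, 1953 and 2133 in lhp1 and 2063, 2329 and 2426 in ebs shl. Its libraries were at 3769, 3312 and 3451 CPM in ebs shl lhp1 and 4985, 4104 and 4485 in emf1. It was higher in both, by log2FC 0.49 ± 0.10 SE, adjusted p = 0.0006 and log2FC 0.86 ± 0.10 SE, adjusted p = 8.4e-06; with reference gene factors the first was 0.18 and not called, and the second held throughout. The small subunit PSBX (AT2G06520) was at 1178, 1469 and 1310 CPM in WT, 1224, 1092 and 1139 in lhp1, 1236, 1383 and 1315 in ebs shl, 1311, 1180 and 1419 in ebs shl lhp1 and 1658, 1630 and 1608 in emf1. It was lower in ebs shl lhp1 than in emf1 (log2FC -0.32 ± 0.10 SE, adjusted p = 0.014), a call lost with library totals (-0.20, adjusted p = 0.08) and with only the 2 genotypes in the fit (adjusted p = 0.059). PSBY was lower than WT in ebs shl lhp1 (log2FC -0.43 ± 0.11 SE, adjusted p = 0.0024) and higher in emf1 (log2FC 0.31 ± 0.11 SE, adjusted p = 0.021), the second turning to -0.02 with library totals and not called without WT replicate 1, WT replicate 3 or emf1 replicate 1 (adjusted p = 0.079, 0.056 and 0.067). PSBP1 was lower in ebs shl lhp1 (log2FC -0.37 ± 0.11 SE, adjusted p = 0.01), a call lost without ebs shl lhp1 replicate 2 (adjusted p = 0.056), and the small subunit PSBW was higher in emf1 (log2FC 0.38 ± 0.12 SE, adjusted p = 0.011; 0.05 and not called with library totals, and not called without WT replicate 1, adjusted p = 0.056).

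Shares within gene groups were compared with WT by exact two-sided permutation tests, 60 in all, for which 3 libraries against 3 cannot give a p below 0.10. The smallest p was 0.1, and the smallest after Benjamini-Hochberg adjustment 0.222, so no share passed the test. The share of LHCB2.3 was lower in 3 of 3 libraries of both ebs shl lhp1 and emf1 than in any WT library (p = 0.1 in each exact test), as was that of LHCB1.2, PSAD1 and PSAE1, and the share of PSBQ1, PSAH1 and LHCB1.5 was higher.

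**Figure D4:**
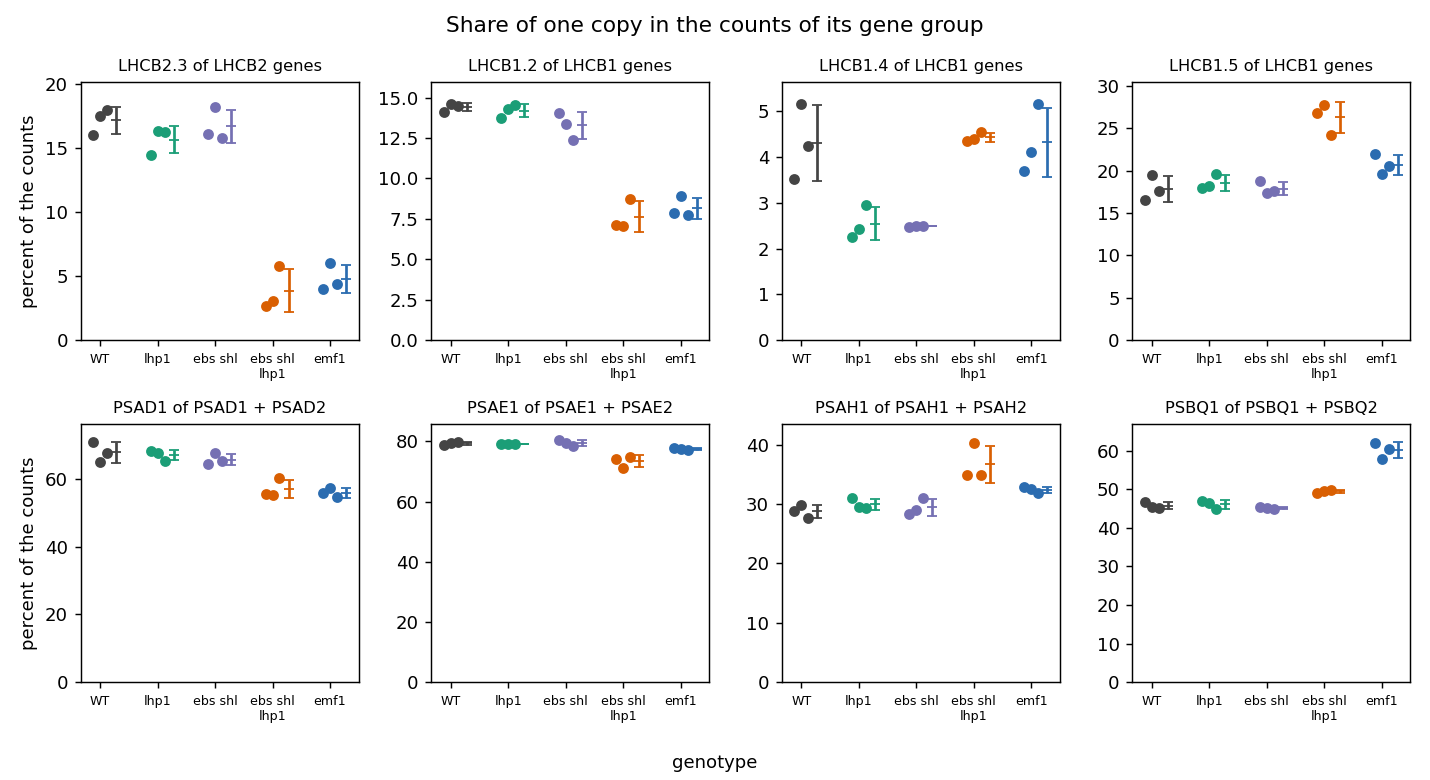
Share of one copy in the counts of its gene group, in percent, by genotype; points are the 3 libraries, and bars the mean and SD. The LHCB2.3, LHCB1.2, PSAD1 and PSAE1 points of ebs shl lhp1 and emf1 lie below all WT points, those of LHCB1.5, PSAH1 and PSBQ1 above them, and those of LHCB1.4 are low in lhp1 and ebs shl only.

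Genes that work with the photosystems followed the members in part. On the TMM scale, the counts that follow stand beside 34.6% of all genes called higher and 35.7% lower in ebs shl lhp1 against WT. For emf1 against WT these shares were 30.7% and 33.9%, and for ebs shl lhp1 against emf1 23.6% and 20.5%. With library totals the median of all genes against WT was -0.23 in ebs shl lhp1 and -0.36 in emf1. Of 20 genes of chlorophyll synthesis, 10 were lower (50% of them) and 1 higher (5%) in ebs shl lhp1 against WT, or 15 and 0 with library totals. In emf1 13 were higher (65%) and 3 lower (15%), or 6 and 4 with library totals, and 18 were lower in ebs shl lhp1 than in emf1 (90%). CHLM, the magnesium protoporphyrin methyltransferase, was at 295, 383 and 356 CPM in WT and 599.5, 543 and 650.3 in emf1 (log2FC 0.79 ± 0.10 SE, adjusted p = 2.1e-05). PORA, a protochlorophyllide reductase of etiolated seedlings, was at 4.59, 8.61 and 9.05 CPM in WT, 21.5, 17.1 and 31 in lhp1 and 29.7, 26.3 and 30.6 in ebs shl. It was at 0.558, 0.949 and 3.896 CPM in ebs shl lhp1 and 1.08, 3.06 and 0.978 in emf1. It was higher in ebs shl (log2FC 1.96 ± 0.42 SE, adjusted p = 0.01) and lower in ebs shl lhp1 and emf1 (log2FC -1.92 ± 0.52 SE, adjusted p = 0.0043 and log2FC -2.08 ± 0.52 SE, adjusted p = 0.0032). Its lhp1 libraries also all lay above WT, at 1.65, but PORA was not called there. The rise in ebs shl was not called without WT replicate 1 (adjusted p = 0.052), and the value in ebs shl lhp1 was -3.29 without ebs shl lhp1 replicate 3. HEMB1, for porphobilinogen synthesis, was the 1 gene of this list called higher in ebs shl lhp1 (log2FC 0.37 ± 0.07 SE, adjusted p = 0.00049), a call lost with library totals (0.16) and reference gene factors (0.06). PORC was lower in ebs shl (log2FC -0.47 ± 0.12 SE, adjusted p = 0.023), a call lost without WT replicate 2 or 3 or ebs shl replicate 1 or 3 (adjusted p of 0.077 to 0.093).
Of 11 genes of electron transport and the ATP synthase, 3 were higher and 3 lower in ebs shl lhp1 (27.3% each, both below the shares of all genes; 0 and 6 with library totals), and 8 were higher in emf1 (72.7%; 6 with library totals). ATPD, the delta subunit of the ATP synthase, fell in ebs shl lhp1 (log2FC -0.92 ± 0.14 SE, adjusted p = 3.9e-05), and FNR2, a ferredoxin-NADP reductase, was higher (log2FC 0.30 ± 0.10 SE, adjusted p = 0.018), a call lost with library totals (0.09), upper-quartile factors (0.12) and without WT replicate 1 (adjusted p = 0.089), its sign turning with reference gene factors (-0.02). In emf1 the called values ran from FNR1, the other leaf form of that enzyme (log2FC 0.38 ± 0.09 SE, adjusted p = 0.0027), to the ferredoxin FD1 (log2FC 0.86 ± 0.15 SE, adjusted p = 0.00026). With library totals FD1 was at 0.52. The FNR1 call was lost with library totals (0.05), upper-quartile factors (0.21) and reference gene factors (0.22).

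Of 14 genes for antenna insertion and photosystem assembly, all 14 were higher in emf1 (10 with library totals), and 9 were higher (64.3%) and 1 lower (7.14%) in ebs shl lhp1 (2 and 4 with library totals). HCF173, needed for translation of the photosystem II reaction centre, was at 225, 277 and 259 CPM in WT, 325, 237 and 232 in ebs shl lhp1 and 616, 414 and 498 in emf1 (log2FC 1.01 ± 0.15 SE, adjusted p = 6.5e-05). The lowest called value in emf1 was that of CPFTSY, the receptor of the chloroplast signal recognition particle (log2FC 0.26 ± 0.08 SE, adjusted p = 0.012). That call was lost with library totals (-0.07), upper-quartile factors (0.09) and reference gene factors (0.11). TAP38, a phosphatase of LHCII, rose in ebs shl lhp1 (log2FC 0.61 ± 0.11 SE, adjusted p = 0.00026) and the assembly factor PSB28 fell (log2FC -0.37 ± 0.10 SE, adjusted p = 0.0047). Of 4 less abundant antenna and photosystem genes, LHCA6, which joins photosystem I to the NDH complex, was lower in ebs shl lhp1 (log2FC -0.83 ± 0.15 SE, adjusted p = 0.00021), as was LHCB7 (log2FC -0.43 ± 0.18 SE, adjusted p = 0.044). The LHCB7 call was lost on leaving out any WT replicate or ebs shl lhp1 replicate 1 or 3 (adjusted p of 0.07 to 0.13). LHCA5, the partner of LHCA6 in that link, was higher in emf1 (log2FC 0.66 ± 0.10 SE, adjusted p = 8.2e-05).

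Among 12 regulators of photosynthesis genes, 6 were lower (50%) and 1 higher (8.33%) in ebs shl lhp1, and 6 were higher (50%) and 1 lower (8.33%) in emf1; library totals gave 6 and 0, and 6 and 2. GLK1, an activator of antenna and chlorophyll genes, was at 223, 155 and 215 CPM in WT, 274, 182 and 182 in lhp1 and 176, 220.1 and 253 in ebs shl. It was at 43.8, 25.7 and 38.4 CPM in ebs shl lhp1 and 57.7, 63.9 and 39.04 in emf1. It was lower in both of the last, at log2FC -2.46 ± 0.25 SE, adjusted p = 1.4e-06 and log2FC -1.88 ± 0.24 SE, adjusted p = 1.8e-05. Its homologue GLK2 was at 186, 171 and 209 CPM in WT, 126, 129.5 and 143 in ebs shl lhp1 (log2FC -0.51 ± 0.12 SE, adjusted p = 0.0015) and 248, 204 and 191 in emf1 (log2FC 0.18 ± 0.12 SE, adjusted p = 0.19; -0.15 and not called with library totals). The GATA factors GNC and GNL, which promote greening, were higher in emf1, by log2FC 1.13 ± 0.18 SE, adjusted p = 9.5e-05 and log2FC 1.4 ± 0.25 SE, adjusted p = 0.00024. GNC was lower in ebs shl lhp1 (log2FC -0.55 ± 0.18 SE, adjusted p = 0.016) with overlapping libraries. That call was lost without WT replicate 1 or ebs shl lhp1 replicate 2 or 3 (adjusted p = 0.089, 0.087 and 0.059). GNL was at log2FC -0.36 ± 0.26 SE, adjusted p = 0.23 there, and called lower with reference gene factors (-0.67). HY5, a light-signalling bZIP factor, was lower in ebs shl lhp1 (log2FC -0.48 ± 0.19 SE, adjusted p = 0.034) with overlapping libraries. The call was lost without WT replicate 1 or ebs shl lhp1 replicate 1 or 3 (adjusted p = 0.18, 0.091 and 0.15) and with only the 2 genotypes in the fit (0.074). For emf1 HY5 was at log2FC -0.23 ± 0.18 SE, adjusted p = 0.28, and called lower with library totals (-0.57). The sigma factor gene SIG6 was higher in ebs shl lhp1 (log2FC 0.35 ± 0.09 SE, adjusted p = 0.0036), a call lost with upper-quartile factors (0.17), library totals (0.14) and reference gene factors (0.03).

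**Figure D5:**
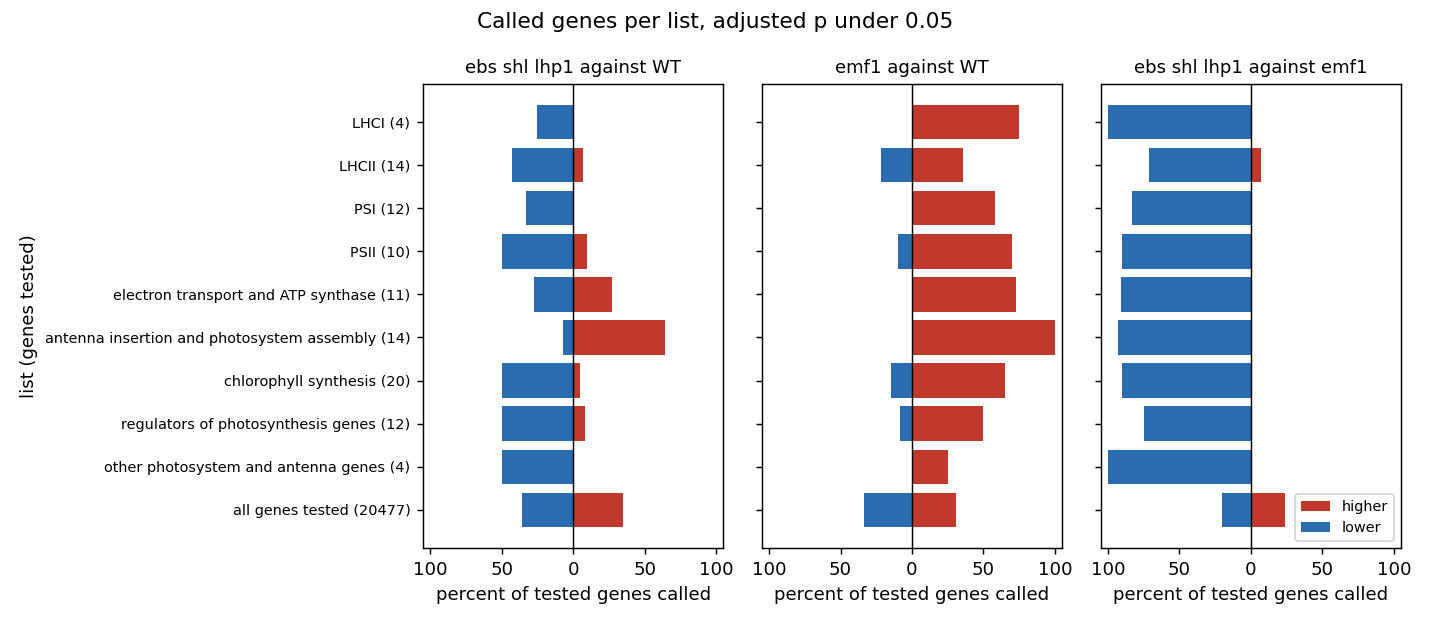
Percentage of the tested genes of each list that were called higher (red, to the right) or lower (blue, to the left) in 3 comparisons, with the number of genes tested in brackets and all genes in the lowest row. Against emf1 the ebs shl lhp1 bars run to the left in every photosynthesis list; in emf1 against WT they run mostly to the right on the TMM scale, and with library totals the median of LHCII, PSI and the 4 other photosystem genes falls just below 0.

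In whole seedlings, fewer green cells and less RNA per green cell cannot be told apart. Markers of other tissues and states moved with the genotypes. Their calls stand beside 35.7% of all genes lower and 34.6% higher in ebs shl lhp1 against WT. In emf1 against WT 33.9% were lower and 30.7% higher, and in ebs shl lhp1 against emf1 20.5% and 23.6%. In lhp1 and ebs shl against WT 0.542% and 2.52% of all genes were lower, and 0.772% and 5.31% higher. Of 7 further mesophyll genes such as the Rubisco small subunits, 0 were higher and 4 lower in ebs shl lhp1, 5 were higher and 1 lower in emf1 (3 and 2 with library totals), and all 7 were lower in ebs shl lhp1 than in emf1; their summed level was 31900 to 33750 CPM in WT and 45310 to 53070 in emf1, and the libraries labelled ebs shl lhp1 had 23140 to 29020. Of 12 root markers 11 were tested, with 7 lower and 1 higher in ebs shl lhp1 and 10 lower in emf1. Their summed level was 96.2 to 148 CPM in WT, against 66.1 to 97.4 CPM where ebs shl lhp1 was labelled, and emf1 had 28.04 to 32.5. IRT1, EXPA7, COBL9 and RSL4 were at or near 0 in both mutants. All 7 flower markers were higher in lhp1, ebs shl and ebs shl lhp1, and 5 of 7 in emf1, with sums of 4.46 to 5.56 CPM in WT. In lhp1 and ebs shl libraries the sums were 219 to 248 and 256 to 300.4 CPM; in those labelled ebs shl lhp1 they were 352 to 480.2, and emf1 had 146 to 176. The 7 seed markers summed to at most 1.95 CPM in any library. Dark and senescence genes summed to 106 to 741 CPM in WT and 3599 to 7788 in emf1, and to 6433 to 9003 where ebs shl lhp1 was labelled. Of 6 tested, 4 in ebs shl lhp1 and 3 in emf1 were called higher (1 lower in emf1) and SAG12, a marker of late senescence, was at or near 0. WT replicate 2, in which the members were highest, was also the highest WT library for these genes. The 4 morning clock genes were all lower in ebs shl lhp1 (summed 287 to 403 CPM in WT and 81.7 to 108 in ebs shl lhp1; 201 to 319 in emf1, 2 of 4 lower), and 3 of 5 evening genes were higher. The hour of harvest is not given in the sources used here. The part of these tissues, states and clock phases in the photosystem values was not tested.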

How the data were processed

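Whole-seedling mRNA was sequenced from stranded libraries, 15 in all. The authors deposited raw counts of reads per locus for each library, made with TopHat2 2.1.1 and HTSeq on TAIR10 per the submitters' processing notes; the strand setting and the treatment of reads with several alignments are not given in the sources used here. Values in CPM were computed here from the deposited counts with TMM factors. edgeR 4.0.16 (R 4.3.3, limma 3.58.1) fitted all 15 libraries with 1 term per genotype after its filter on low counts, and quasi-likelihood tests were adjusted by Benjamini-Hochberg over 20477 genes with a threshold of 0.05. The SE of a log2 fold change is its size over the square root of F. DESeq2 1.42.0 was an alternative, beside other scalings, filters, subsets and each library left out. The edgeR and DESeq2 code was tested on simulated data. Transcripts were compared with BLAST 2.17.0, and shares were tested with scipy 1.17.1. Names, lengths and sequences came from RefSeq's TAIR10.1. Members and lists were chosen with earlier results of these data known. Values in every library are given for the most abundant member of each sub-complex, the 3 highest and 3 lowest called members of each comparison, and the copies of PSAD, PSAE, PSAH, PSBO, PSBQ and LHCB4; LHCB2.2 was added after its values were seen. Other lists are named by their highest and lowest called gene, with GLK1, GLK2, GNC, GNL and HY5 always. Libraries of a genotype differed by more than counting noise (chi-square per degree of freedom 4.33 to 25.3). The labels do not say whether they came from separate plants or pools, so p-values measure the spread between these libraries only, and intervals from counts would cover counting error only.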

Additional observations from a re-analysis of the deposited data

How the results depend on the processing

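The count of members called in lhp1 against WT, 1, became 8 with DESeq2 and 2 with only the 2 genotypes in the fit. Calls over all genes tested in each went from 269 to 507 and 471. In ebs shl against WT, 2 became 1 with reference gene factors, 1 with the replicate block, 4 with DESeq2 and 4 with only the 2 genotypes. Over all genes, 1604 calls became 1516, 1354, 1986 and 2342 in the same order. In ebs shl lhp1 against WT, 18 became 28 with library totals and 31 with reference gene factors, and the median of -0.14 became -0.31 with upper-quartile factors, -0.34 with library totals and -0.45 with reference gene factors. In emf1 against WT, 26 became 15 with upper-quartile factors, 11 with library totals and 15 with reference gene factors, and the median of 0.31 became 0.14, -0.02 and 0.15; with library totals PSAH1 turned to -0.06, PSAO and CPFTSY to -0.07, PSBY to -0.02 and the uncalled GLK2 to -0.15. With reference gene factors FNR2 turned to -0.02 in ebs shl lhp1. Each of these scalings moved the median of all genes by as much as that of the members, as any scaling must. In ebs shl lhp1 against emf1 the median of -0.46 became -0.62 with reference gene factors. On TMM-normalised CPM in place of the share of all counts, the ratio of the members to WT was 0.917 where the share gave 0.795 in ebs shl lhp1. In emf1 it was 1.27 where the share gave 1.01, and for PSI 1.18 against 0.937. With single libraries left out, counts of called members stayed at 1 in lhp1 and at 0 in ebs shl against lhp1. They ran from 1 to 2 in ebs shl; against WT they spanned 15 to 20 in ebs shl lhp1. For emf1 the span was 17 to 29, and between these mutants 32 to 37. Same-numbered libraries did not deviate together: of 30 correlations between same-numbered libraries of 2 genotypes, from -0.412 to 0.286, 4 were over 0.1, and in 7 of the 30 the library correlated best with its own number. The replicate block gave 1, 1, 18, 24, 34 and 0 calls in the 6 comparisons. The recalculation for single genes outside the 40 was chosen after seeing the data. The medians kept their sign in all other settings tried. LHCB4.3, with 1670 counts in all libraries together, was the member most limited by depth.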
